A study of Homo sapiens with 12 samples.

Results

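The array entries hsa-miR-720, hsa-miR-1260, hsa-miR-1280, hsa-miR-1274a, hsa-miR-1274b and hsa-miR-1308_v15.0 (miR-1308 from here on) were listed as microRNAs when the array was designed and are now read as pieces of transfer RNAs. They were chosen by name and make up 6 of the 851 human names. All 6 were found, and each was detected on all 12 arrays. The cells were SUM159, a line from a human triple-negative breast tumour, stably infected with the PLKO.1 vector. In 1 line it held a scrambled shRNA as control and in the other an shRNA to Dicer. Each line was given PBS as vehicle or metformin, a diabetes drug, at 0.5 mM for 24 h while growing in medium with insulin and hydrocortisone. The 4 groups of 3 biological replicates were therefore control shRNA with vehicle, Dicer shRNA with vehicle, control shRNA with metformin and Dicer shRNA with metformin. Whether the infected cells were a clone or a pool is not given in the sources used here. Total RNA was hybridised to 1-colour Agilent microRNA arrays.

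Transfer RNAs carry amino acids to the ribosome. Their precursors are trimmed by RNase P at the 5′ end and RNase Z at the 3′ end, and the letters CCA are then added to the 3′ end. Mature transfer RNAs can be cut into shorter fragments, in stressed cells by angiogenin, whereas a canonical microRNA is released from a hairpin by Drosha and then Dicer. Fragments of transfer RNAs entered early microRNA catalogues from small RNA sequencing, and several were later withdrawn. miR-720 matches a threonine transfer RNA, miR-1260 and miR-1280 leucine transfer RNAs, miR-1274a and miR-1274b lysine transfer RNAs, each near the 3′ end, and miR-1308 the 5′ end of a glycine transfer RNA. A match to a transfer RNA does not show that a fragment is made without Dicer. Whether Dicer makes any of these fragments was not tested, and the groups were compared only on the levels of the entries.

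The RefSeq microRNA table (GRCh38.p14) held 1 of the 6, miR-1260, under its present name miR-1260a (gene MIR1260A). Its mature sequence lies at chr14:77266231-77266248 on the plus strand, within the span of NGB, the neuroglobin gene. The 2 sequences are shown because the first ends in the letters CCA and the second shares its seed, and the capitals mark the seed, bases 2 to 8.
miR-1260a: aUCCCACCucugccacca
miR-1260b: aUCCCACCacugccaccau
The second, at chr11:96341447-96341465 on the plus strand, differs over the shared 18 bases only by U9A, counted from the 5′ end, and has 1 further base at its 3′ end. No other of the 2370 mature microRNAs in the table has this seed, and 45 of them (1.90%) end in CCA. At the locus given the CCA of miR-1260a is part of the genomic hairpin sequence. The array lists no entry for miR-1260b, and whether the miR-1260 probe also reads it was not tested.

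Slide 1 held the vehicle groups and slide 2 the metformin groups, per the file names. Slide and metformin therefore cannot be told apart, whereas the lines were compared within a slide. Control shRNA arrays held the first positions of each slide, and line and position cannot be told apart. Dicer mRNA was not measured by these arrays, so the knockdown was not checked. All 7 mesenchymal markers, among them miR-221 and miR-155, were detected on all 3 arrays of control shRNA with vehicle. Over the 12 arrays miR-125b was detected on 10 and miR-146a on 8, and the other mesenchymal markers on all 12. In control shRNA with metformin miR-125b was detected on 1 of 3 arrays and miR-146a on 0. No array detected 5 of 6 epithelial markers, and the exception, miR-205, was detected on all 12. Of 5 blood markers miR-223 was detected on the 3 arrays of control shRNA with metformin and the other 4 on no array. Of 4 muscle markers miR-133a was detected on 10 arrays, miR-133b on 4, and miR-1 and miR-206 on none. Of 3 neural markers miR-128 was detected on the 3 arrays of control shRNA with vehicle and the others on none, as was the liver marker miR-122. The arrays detected 130 to 204 human names, and 98 names were detected on all 12. Signals below were scaled to each array's 75th percentile over those 98 names and have no absolute unit, so levels are compared between groups and never between entries. Differences are log2 differences ± SE from limma, fitted with 3 arrays per group over 208 tested names, and adjusted p-values are Benjamini-Hochberg values over all 208. Fewer fragments per cell and fewer cells that hold them cannot be told apart in total RNA. Whether the probes also read whole transfer RNAs was not tested, so the signals are levels of the array entries.

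The stated error of the array software was 7.25% to 15.7% of the signal for the 6 entries. The coefficient of variation between the 3 arrays of a group was 2.07% to 27.3%, with a median of 10.1% over the 24 combinations of entry and group. The number of arrays limits the precision of every value here.

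**Figure D1:**
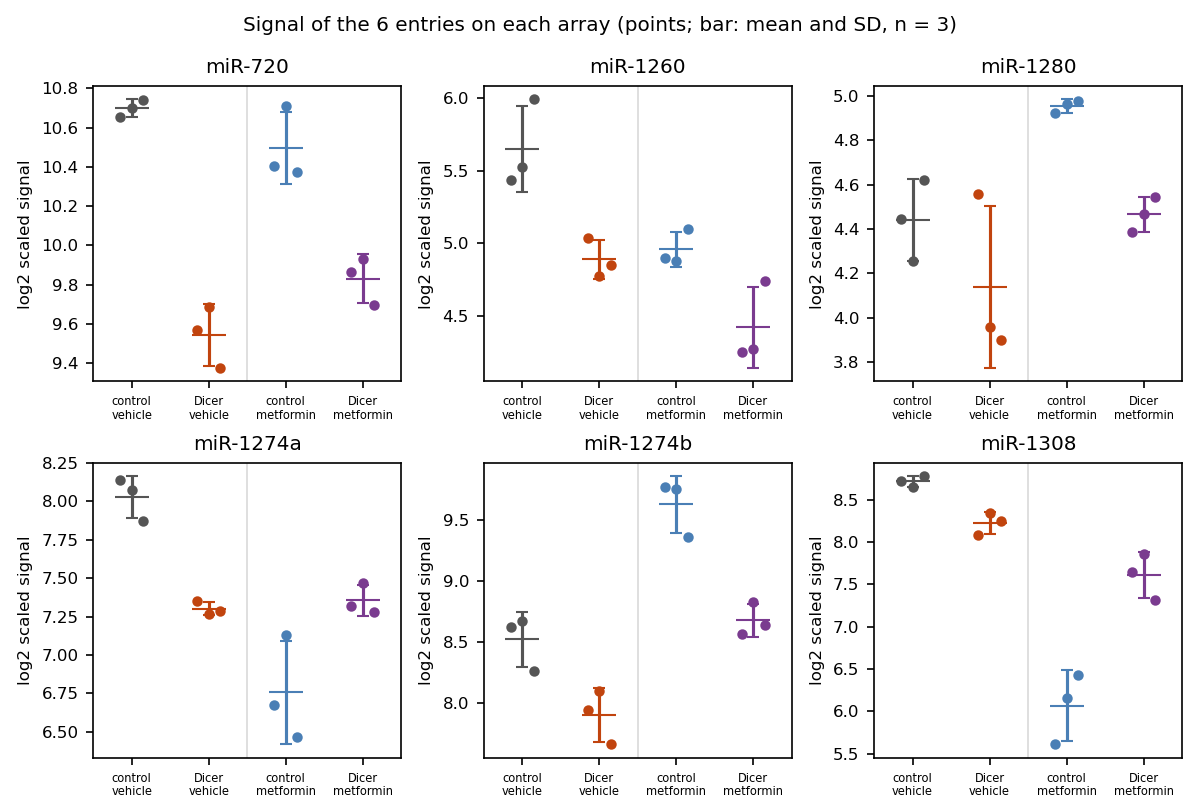
Scaled signal (log2, vertical axis, its own range in each panel) of the 6 entries on each array of the 4 groups; points are arrays, bars the mean and SD (n = 3), and the grey line parts the 2 slides. miR-1308 spans the widest range, from 48.8 to 439 before log2, and miR-1280 the narrowest, from 14.9 to 31.5.

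The first comparison was Dicer shRNA against control shRNA with vehicle. None of the 6 entries was higher in Dicer shRNA cells, and 4 fell past the threshold. miR-720, from a threonine transfer RNA, fell by 1.16 ± 0.12, or 2.23-fold. miR-1260 fell by 0.76 ± 0.18, miR-1274a by 0.73 ± 0.16 and miR-1274b by 0.62 ± 0.17, or 1.54-fold to 1.70-fold. miR-1308 (-0.49 ± 0.20, adjusted p 0.057) and miR-1280 (-0.30 ± 0.17, adjusted p 0.148) did not pass, with 95% intervals of -0.94 to -0.04 and -0.68 to 0.07.

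The scaled signal of miR-720 was 1612, 1665 and 1714 on the 3 arrays of control shRNA with vehicle and 761, 823 and 664 on those of Dicer shRNA with vehicle. The highest Dicer shRNA array thus lay below the lowest control shRNA array by a wide margin. For miR-1260, the leucine entry whose sequence is given above, the control shRNA arrays read 43.2, 46.0 and 63.6 and the Dicer shRNA arrays 32.8, 27.4 and 28.9. The groups do not overlap, and 1 control shRNA array is well above the other two. miR-1280, the other leucine entry, read 21.8, 19.1 and 24.6 in control shRNA cells and 23.6, 15.5 and 14.9 in Dicer shRNA cells. Here the first Dicer shRNA array lies among the controls, and without it the difference was -0.51 and passed (adjusted p 0.0032).

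The lysine entries were both lower in Dicer shRNA cells with vehicle. miR-1274a was 282, 269 and 235 in control shRNA cells and 163, 154 and 156 in Dicer shRNA cells. miR-1274b was 395, 409 and 307 in control shRNA cells and 245, 275 and 202 in Dicer shRNA cells. Neither pair of groups overlaps. miR-1308, from the 5′ end of a glycine transfer RNA, read 422, 402 and 439 in control shRNA cells and 272, 325 and 303 in Dicer shRNA cells, again with no overlap.

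Of all 208 tested names 59.6% were called in this comparison, 21.6% as higher and 38.0% as lower, and the groups did not overlap for 63.0%. Against this background 4 of 6 entries were called lower and 5 of 6 did not overlap. The median change was -0.67 over the 6 entries, 0.00 over the 208 names and 0.33 over the 98 names detected on every array. A reference list of canonical Dicer-cut microRNAs, the let-7 family among them, had all 26 tested members lower, with a median of -2.42, and miR-21 fell by 2.50 ± 0.27. A member could enter the test by detection in 1 group alone. In every comparison of this list, values under a floor of 3.01 were set to it before log2. The array's hur control features were lower too, 5 of 5 with a median of -1.05, while all 10 viral names detected on every array were higher, with a median of 0.87. Of the hur features, hur_5 was detected on 7 of the 12 arrays and the others on all 12. The part of the hur features and viral names in the differences of the 6 entries was not tested.

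After quantile normalization 114 of the 208 names were called in this comparison, 61 as higher and 53 as lower. Of the 6 entries 1, miR-720, was called, and miR-1274a stood at -0.06 and miR-1280 at 0.092. miR-1308 and miR-1280 were called lower without scaling (-0.64 and -0.45), scaled to the median (-0.90 and -0.71) or to the viral names (-1.37 and -1.18), and with the series matrix (-0.83 and -0.44). miR-1308 was also called with an offset in place of the floor (-0.47), and, at its difference of -0.49, with only the names detected on all arrays or only the groups compared (adjusted p 0.0457 and 0.0069). miR-1280 was also called with array weights (-0.33). Without replicate 1 of control shRNA with metformin, an array outside the comparison, the scaling set grew from 98 to 99 names and miR-1260, miR-1274a and miR-1274b lost their calls (adjusted p 0.147, 0.057 and 0.130), while all 3 calls held when the scale factors of all 12 arrays were kept, an alternative chosen after seeing the data.

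The same lines were then compared with metformin. All 6 entries passed there, 4 lower and 2 higher in Dicer shRNA cells. miR-1274b fell by 0.95 ± 0.17, miR-720 by 0.67 ± 0.12, miR-1260 by 0.54 ± 0.18 and miR-1280 by 0.49 ± 0.17. miR-1308 rose by 1.54 ± 0.20, or 2.91-fold, and miR-1274a by 0.60 ± 0.16, or 1.52-fold.

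miR-1274b read 877, 863 and 658 in control shRNA cells and 380, 454 and 398 in Dicer shRNA cells with metformin. miR-1274a, the other lysine entry, read 102, 140 and 88.5 in control shRNA cells and 160, 177 and 155 in Dicer shRNA cells. The 2 lysine entries thus differed in opposite directions between the same arrays, and in neither did the groups overlap. miR-1308 read 48.8, 71.7 and 86.1 in control shRNA cells and 200, 232 and 160 in Dicer shRNA cells. Each Dicer shRNA array lay far above each control shRNA array.

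miR-720 read 1355, 1675 and 1329 in control shRNA cells and 933, 977 and 828 in Dicer shRNA cells with metformin. The order of the lines was the one seen with vehicle. miR-1260 read 29.9, 29.3 and 34.2 in control shRNA cells and 19.0, 19.3 and 26.8 in Dicer shRNA cells. miR-1280 read 30.3, 31.2 and 31.5 in control shRNA cells and 20.9, 22.1 and 23.3 in Dicer shRNA cells. Neither leucine entry overlaps between the lines, though their calls are narrow. That of miR-1260 (adjusted p 0.036) was lost without any 1 of the 3 arrays of control shRNA with metformin or without replicate 1 or 2 of Dicer shRNA with metformin (adjusted p 0.061 to 0.131). That of miR-1280 (adjusted p 0.042) was lost without any 1 of the 6 metformin arrays or without replicate 1 of control shRNA with vehicle (adjusted p 0.052 to 0.127), and with the replicate number as a block (adjusted p 0.056). With the 6 entries left out of the scaling set, both lost their calls (adjusted p 0.187 each), as they did when every name detected on at least 1 array was tested (adjusted p 0.052 and 0.056). Without scaling miR-1280 stood at -0.41 (adjusted p 0.0537). miR-1274a lost its call after scaling to the median (0.20, adjusted p 0.434). With only the groups compared in the fit, the differences of miR-1274a and miR-1260 were those above and their calls were lost (adjusted p 0.0707 and 0.0653). miR-720 (-0.010) and miR-1274b (-0.30) lost theirs after quantile normalization and, at -0.13 and -0.41, when scaled to the viral names.

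In this comparison 38.9% of the tested names were called, 13.9% as higher and 25.0% as lower, and the groups of 53.8% did not overlap. The median change was -0.51 over the 6 entries, -0.24 over all tested names and -0.33 over the 98 names detected on every array. The Dicer-cut list had 9 of 26 members higher and 0 lower, with a median of 0.30, and miR-21 rose by 2.12 ± 0.27. The hur control features were higher, 5 of 5 with a median of 1.74, as miR-1308 and miR-1274a were, though 4 of 5 after scaling to the median. The viral names were lower in 9 of 10 cases, with a median of -0.49, as the other 4 entries were. Scaled to the viral names, 2 entries were called, both higher, and miR-1260 and miR-1280 stood at 0.0012 and 0.050. Their part in these differences was not tested.

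In the mean of the 2 within-slide differences, taken from the same fit, 5 of the 6 entries passed. miR-720 fell by 0.91 ± 0.09, miR-1274b by 0.79 ± 0.12, miR-1260 by 0.65 ± 0.13 and miR-1280 by 0.40 ± 0.12, and miR-1308 rose by 0.52 ± 0.14. For miR-1308 that mean joins -0.49 with vehicle and 1.54 with metformin. miR-1274a, whose within-slide differences also have opposite signs, averaged -0.06 ± 0.11 (95% interval -0.31 to 0.18). Of all tested names 51.0% were called, 15.4% as higher and 35.6% as lower. The call of miR-1280 was lost without replicate 3 of control shRNA with vehicle, replicate 2 of Dicer shRNA with vehicle or replicate 1 of control shRNA with metformin (adjusted p 0.052 to 0.222), and with the entries left out of the scaling set (adjusted p 0.0592). miR-1274b lost its call after quantile normalization (-0.24), and miR-1274a was called after scaling to the median (-0.47). The call of miR-1308 was lost after scaling to the median (0.12), to the viral names (0.36) or with the series matrix (0.30).

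A rank among names does not depend on the factor by which an array is multiplied, so leaving out the scaling could not change it. Leaving out the floor as well changed none of the 36 ranks of the 6 entries. Ranks after quantile normalization, which is not a factor per array, were not tested. Ordered from the most negative change among the 98 names detected on every array, miR-720 stood at rank 6 with vehicle, rank 13 with metformin and rank 2 on average. miR-1274b stood at ranks 17, 6 and 3, miR-1260 at ranks 11, 28 and 6, and miR-1280 at ranks 25, 31 and 9. These 4 entries lay in the lower part of the order on both slides. miR-1274a moved from rank 12 with vehicle to rank 82 with metformin, and miR-1308 from rank 22 to rank 92. Relative to the median of the 98 names, miR-720 stood at -1.49 with vehicle and at -0.34 with metformin. The order leaves out every name that was undetected on any array, so a low rank is not a rank among all tested names. The 26 tested Dicer-cut names had medians of -2.42 with vehicle and -1.05 on average, below miR-720 at -1.16 and -0.91. With metformin their median was 0.30, above miR-720 at -0.67.

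**Figure D2:**
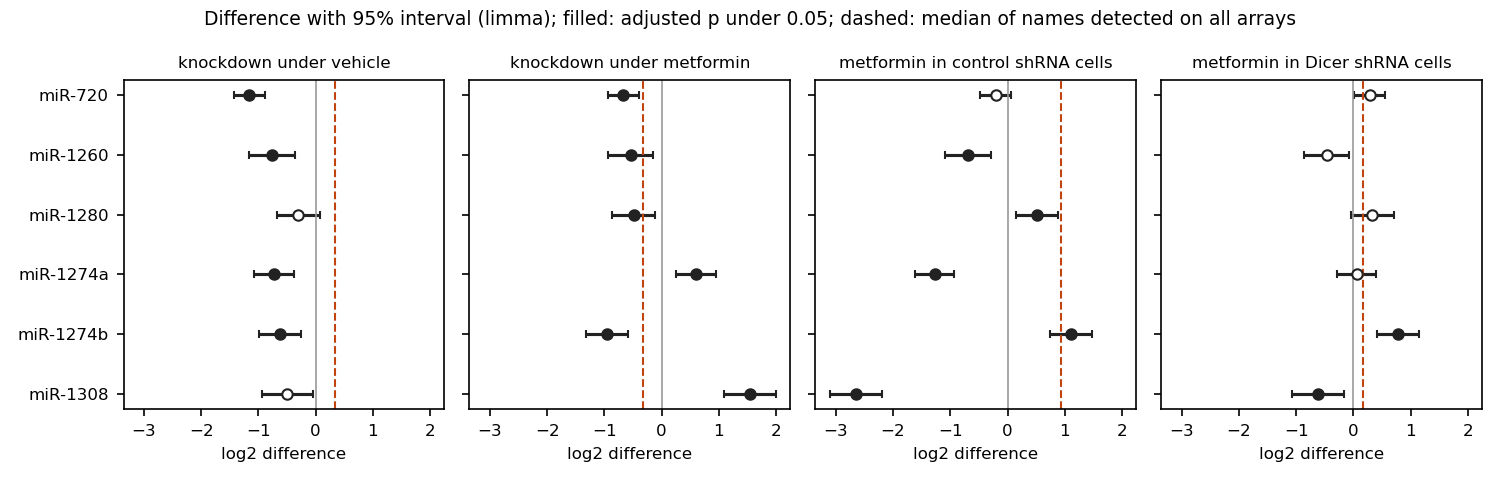
Log2 difference of each entry (horizontal axis, point with 95% interval from limma, 3 arrays per group) in 4 comparisons; filled points passed an adjusted p of 0.05, and the dashed line is the median of the 98 names detected on every array. All 6 points lie left of 0 for the knockdown with vehicle, and miR-1274a and miR-1308 lie right of it for the knockdown with metformin.

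Metformin was compared with vehicle in control shRNA cells, a comparison that shares its control arrays with the first. The 6 entries did not all move in the same direction there. miR-1308 fell by 2.65 ± 0.20, or 6.28-fold, from 402 to 439 on the vehicle arrays to 48.8 to 86.1 on the metformin arrays. miR-1274a fell by 1.27 ± 0.16, or 2.42-fold, and miR-1260 by 0.69 ± 0.18. miR-1274b rose by 1.11 ± 0.17, or 2.16-fold, and miR-1280 by 0.51 ± 0.17. miR-720 (-0.20 ± 0.12, 95% interval -0.47 to 0.07) did not pass, and its second metformin array, at 1675, lies among the vehicle arrays. Of all tested names 88.0% were called here, 47.6% as higher and 40.4% as lower, and the groups of 91.8% did not overlap, against 5 calls among the 6 entries, a share near the background. The median change was -0.45 over the 6 entries, 0.52 over the 208 names and 0.93 over the 98 names detected on every array. Relative to the median of the 98 names, miR-1274b stood at 0.18 and miR-1280 at -0.42, and the other entries lay below that median too.

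Some of these directions depend on the scaling. Scaling to the viral names moved the median of all tested names by -1.51, and then miR-1274b (-0.55, adjusted p 0.026) and miR-1280 (-1.14) were lower. After quantile normalization miR-1260 stood at 0.12, and miR-720 at -1.63 with a call, which it also had without scaling (-0.57), with the 6 entries left out of the scaling set (-0.32), scaled to the viral names (-1.86) and with the series matrix (-1.15). Without replicate 2 of control shRNA with metformin miR-720 was called at -0.30, and without replicate 1 it stood at 0.21. The call of miR-1280 was lost without scaling (0.14), with the entries left out of the scaling set (0.40) and without replicate 2 of control shRNA with vehicle (0.42), and that of miR-1260 without replicate 1 of control shRNA with metformin (-0.30). miR-1308 and miR-1274a were called lower under all 13 settings tried and on leaving out each of the 12 arrays. The hur control features were lower, 5 of 5 with a median of -3.07, and all 10 viral names higher, with a median of 1.38. The Dicer-cut list had all 26 tested members lower, with a median of -4.63, and miR-21 fell by 5.76 ± 0.27. These falls were larger than those of miR-1308 and miR-1274a. The 2 measures are unlike, since both entries were detected on every array and undetected values of the list were set to the floor.

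In Dicer shRNA cells 2 of the 6 entries passed between metformin and vehicle. miR-1274b rose by 0.78 ± 0.17, or 1.71-fold, from 202 to 275 on the vehicle arrays to 380 to 454 on the metformin arrays. miR-1308 fell by 0.62 ± 0.20 with an adjusted p of 0.049. miR-1260 (-0.47 ± 0.18), miR-1280 (0.33 ± 0.17), miR-720 (0.29 ± 0.12) and miR-1274a (0.05 ± 0.16) did not pass. Their 95% intervals were -0.87 to -0.07, -0.05 to 0.70, 0.02 to 0.56 and -0.29 to 0.40. Of all tested names 24.5% were called, 6.25% as higher and 18.3% as lower, and the groups of 37.0% did not overlap, as for 4 of the 6 entries. The median change was 0.17 over the 6 entries, 0.00 over the 208 names and 0.17 over the 98 names detected on every array. The hur control features were lower, 5 of 5 with a median of -0.76. The Dicer-cut list had 15 of 26 members lower and 0 higher, with a median of -1.05, and miR-21 fell by 1.15 ± 0.27.

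The call of miR-1308 in Dicer shRNA cells was lost without any 1 of the 3 arrays of control shRNA with vehicle, replicate 2 or 3 of Dicer shRNA with vehicle, replicate 2 of control shRNA with metformin or replicate 1 or 3 of Dicer shRNA with metformin (adjusted p 0.074 to 0.182), and with the replicate number as a block (adjusted p 0.0585). It was also lost after scaling to the median, with the entries left out of the scaling set, with all names detected on at least 1 array, with only the groups compared and with the series matrix (adjusted p 0.0575 to 0.194). miR-1260 passed (-0.63) on leaving out the third array of Dicer shRNA with metformin, and miR-1280 passed (0.54) on leaving out the first of Dicer shRNA with vehicle. miR-1260 also passed without scaling (-0.61), scaled to the viral names (-0.71) and with array weights (-0.52). miR-1280 also passed after quantile normalization (0.49), with the series matrix (0.70) and with array weights (0.43). miR-1274b lost its call in 1 of 13 settings, scaled to the viral names (0.54, adjusted p 0.075).

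**Figure D3:**
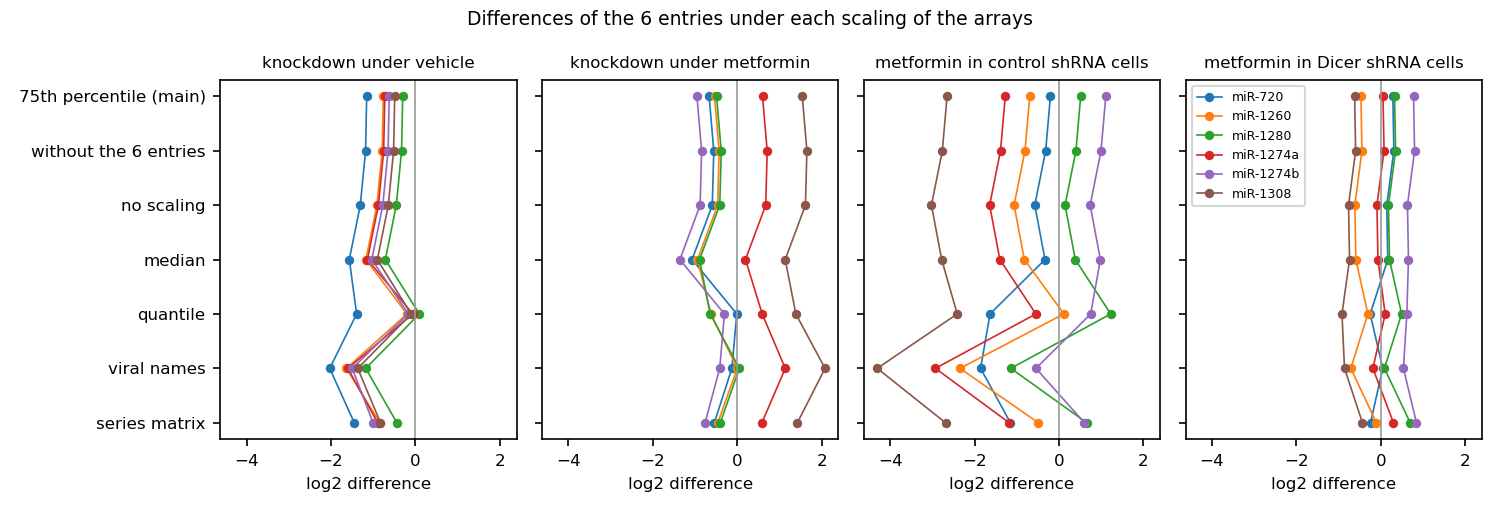
Log2 difference of each entry (horizontal axis) under the main scaling and 6 alternatives (vertical axis, one row each) in 4 comparisons; each colour is 1 entry. Scaling to the viral names shifts all 6 in control shRNA cells with metformin, miR-1308 from -2.65 to -4.31, and miR-1274b from 1.11 to -0.55.

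The metformin difference was unequal between the lines for 3 entries by the interaction in the same fit. The knockdown difference with metformin exceeded that with vehicle by 2.03 ± 0.29 for miR-1308, by 1.33 ± 0.22 for miR-1274a and by 0.49 ± 0.17 for miR-720 (adjusted p 0.00013, 0.00037 and 0.024). miR-1260 (0.22 ± 0.25), miR-1274b (-0.33 ± 0.24) and miR-1280 (-0.19 ± 0.24) did not pass. The intervals were -0.34 to 0.78, -0.86 to 0.19 and -0.71 to 0.34. Of all tested names 76.4% were called for the interaction, 37.0% as higher and 39.4% as lower, against 3 of the 6 entries. The median was 0.36 over the 6 entries, -0.53 over the 208 names and -0.68 over the 98 names detected on every array. The Dicer-cut list had all 26 tested members higher, with a median of 3.38, and miR-21 stood at 4.62 ± 0.38. The call of miR-720 was lost without replicate 3 of control shRNA with vehicle, replicate 1 or 3 of control shRNA with metformin or replicate 1 or 2 of Dicer shRNA with metformin (adjusted p 0.054 to 0.726), and without the array of control shRNA with metformin named first its value was 0.085. It was also lost after scaling to the median (0.50, adjusted p 0.0723). Without that array miR-1274b was called at -0.62.

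Set in order of level, the groups of miR-720 ran from control shRNA with vehicle (1664 ± 51.1, SD, n = 3) over control shRNA with metformin (1453 ± 193) and Dicer shRNA with metformin (913 ± 76.4) to Dicer shRNA with vehicle (749 ± 80.1). Its first 2 groups overlap and the others are apart. miR-1260 was highest in control shRNA with vehicle (51.0 ± 11.1) and lowest in Dicer shRNA with metformin (21.7 ± 4.41), and its middle groups overlap. miR-1280 was highest in control shRNA with metformin (31.0 ± 0.642), and its other 3 groups, at 22.1 ± 1.19, 21.8 ± 2.76 and 18.0 ± 4.83, overlap in turn. The leucine entries therefore had different highest groups.

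miR-1274a was highest in control shRNA with vehicle (262 ± 24.5) and lowest in control shRNA with metformin (110 ± 26.7), while both Dicer shRNA groups lay between and overlap (164 ± 11.5 and 158 ± 4.58). miR-1274b was highest in control shRNA with metformin (799 ± 123) and lowest in Dicer shRNA with vehicle (241 ± 36.5), and its middle groups overlap (410 ± 38.7 and 370 ± 54.9). miR-1308 had 4 separate groups, from control shRNA with vehicle (421 ± 18.5) over Dicer shRNA with vehicle (300.2 ± 26.4) and Dicer shRNA with metformin (197 ± 36.1) to control shRNA with metformin (68.8 ± 18.8). The summed signal of the 5 hur control features had the same order, 196603 to 201037, 133344 to 143687, 69156 to 98029 and 31051 to 36858 on the arrays of those groups.

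The ratio of miR-1274b to miR-1274a within an array does not depend on a factor applied to the whole array, and it was looked at after the values were seen, so it is a description. On the log2 scale it was 0.49, 0.60 and 0.39 on the arrays of control shRNA with vehicle and 0.59, 0.83 and 0.37 on those of Dicer shRNA with vehicle. These 2 groups overlap. It was 3.10, 2.63 and 2.90 on the arrays of control shRNA with metformin and 1.25, 1.36 and 1.36 on those of Dicer shRNA with metformin. The metformin groups lie above the vehicle groups and apart from each other, so the 2 lysine entries changed unequally on slide 2.

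**Figure D4:**
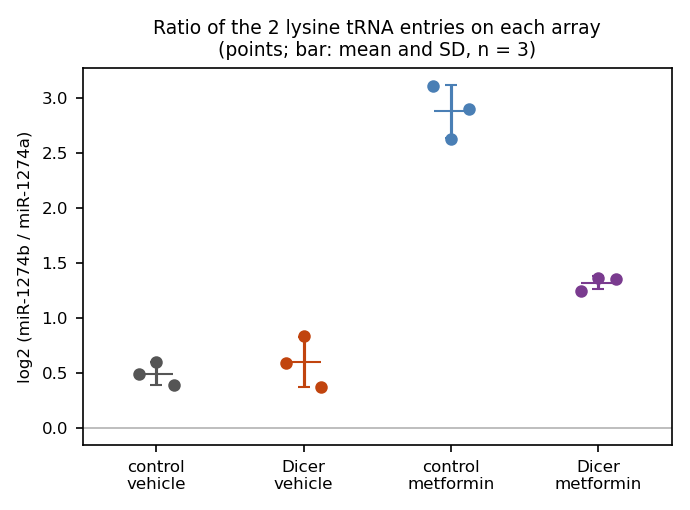
Log2 ratio of miR-1274b to miR-1274a (vertical axis) on each array of the 4 groups; points are arrays, bars the mean and SD (n = 3). Both vehicle groups lie between 0.37 and 0.83, Dicer shRNA with metformin between 1.25 and 1.36, and control shRNA with metformin between 2.63 and 3.10.

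The 6 entries were not one pattern across the 12 arrays, which share slides and scale factors. Pearson's r of log2 signals ran from -0.82 for miR-1274b with miR-1308 to 0.84 for miR-1274a with miR-1308. Within the vehicle slide all 15 pairs had an r above 0, from 0.37 to 0.95 over 6 arrays. Within the metformin slide miR-1308 had an r of -0.83 with miR-720 and -0.93 with miR-1274b. Each of these values is a description.

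Among the other 92 names detected on every array, the ones most like each entry over the 12 arrays were these. For miR-1308 they were miR-221 (r 0.993, and 0.980 and 0.986 within the slides) and miR-100 (r 0.990). For miR-1274a they were miR-21 (r 0.940, and 0.950 within either slide) and miR-24 (r 0.929). Of these, miR-221, miR-21 and miR-24 are on the Dicer-cut list. That list is a selection, so names outside it can be canonical microRNAs too. For miR-720 they were miR-155 (r 0.827, and 0.951 and 0.913 within the slides) and miR-365 (r 0.802). For miR-1260 they were miR-205 (r 0.852, and 0.893 and 0.470) and miR-324-3p (r 0.755). For miR-1280 they were miR-1281 (r 0.856, and 0.672 and 0.879) and let-7b* (r 0.789). For miR-1274b they were miR-320c (r 0.862) and miR-1249 (r 0.725), both with a negative r within the vehicle slide (-0.43 and -0.48).

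Of the other small RNA fragments once listed as microRNAs, 7 were on the array and 3 were tested. With vehicle, miR-1246, a piece of a spliceosomal RNA, fell by 1.32 ± 0.16 in Dicer shRNA cells, miR-923 rose by 0.53 ± 0.09, and miR-1826 (-0.14 ± 0.28) did not pass. With metformin, miR-1826 rose by 2.29 ± 0.28 and miR-1246 by 2.24 ± 0.16, as miR-1308 and miR-1274a did, and miR-923 fell by 0.34 ± 0.09, as the other 4 entries did. The mean log2 signal of miR-1246 in control shRNA with metformin was 1.97, near the floor of 1.59, so its rise was measured from near the floor. The shares called over all tested names were 59.6% with vehicle and 38.9% with metformin.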

How the data were processed

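The members and lists were chosen with earlier results of these data known. Per the file headers, each array file gives a linear intensity per name (total gene signal) with an error and a flag for detection. Agilent Feature Extraction 9.1 is named in the submitters' processing notes. Undetected names are set to 0.1 in the deposited files. An mRNA kit is described in the labels, and groups follow the titles, with which some source names disagree. The log2 values of the deposited series matrix, of unknown normalization and centring, served as an alternative.

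Arrays were scaled at the 75th percentile of the 98 human names detected on all 12 (factors 0.836 to 1.15). A floor of 3.01, taken as the median of the arrays' 5th percentiles of detected signal, came before log2. Human names detected on all 3 arrays of any group, 208 in number, entered a limma 3.58.1 fit of 4 group means (lmFit, eBayes, R 4.3.3) with 8 residual and 1.85 prior degrees of freedom. Names with a Benjamini-Hochberg adjusted p below 0.05 were called. All 6 entries were named by rule, with the 2 names most like each, a related list and a Dicer-cut list. The fit alone was tested on simulated data with known changes and independent noise. Scaling, floor and filter were not part of that test, so it does not bear on them. Alternatives covered scaling, floor, filter, model and each array left out. Other steps used Python 3.11.15, numpy 2.4.6, pandas 2.3.3 and matplotlib 3.10.9.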

Additional observations from a re-analysis of the deposited data

Results flagged for a closer look

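By the interaction term in limma 159 of the 208 tested names (76.4%) were called, a larger share than among the entries. The knockdown difference was unequal between the metformin and vehicle slides for 3 entries by this term. For miR-1308 it was 2.03 larger with metformin (-0.49 with vehicle, 1.54 with metformin) and for miR-1274a 1.33 larger (-0.73 and 0.60), so both changed sign. For miR-720 it was 0.49 larger (-1.16 and -0.67) with the same sign, and its call was lost after scaling to the median (0.50) and on leaving out any 1 of 5 arrays. A change of sign was also seen for miR-21 (-2.50 with vehicle, 2.12 with metformin) and the hur control features (medians -1.05 and 1.74).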

How the results depend on the processing

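Leaving out each array gave 1 to 5 called entries for the knockdown with vehicle (4 in the main fit) and 1 to 3 for metformin in Dicer shRNA cells (2), and 32 to 72 called names in the latter (51). In that comparison 1 entry was called after scaling to the median, with the entries left out of the scaling set, with all names detected on at least 1 array, with the replicate block or with only the groups compared, and 4 with array weights. Quantile normalization left 1 called entry for the knockdown with vehicle. Scaling to the viral names gave 2 called entries for the knockdown with metformin and 6 for the interaction (3). With only the names detected on all arrays, where fewer names are tested, the called names were 64, 44, 27, 86, 28 and 72, against 124, 81, 106, 183, 51 and 159, in the order knockdown with vehicle, with metformin and averaged, metformin in control and in Dicer shRNA cells, and interaction. For the knockdown with metformin they were 129 scaled to the median, 51 scaled to the viral names and 126 with array weights, and for metformin in Dicer shRNA cells 82 with array weights and 19 with only the groups compared. The split of higher and lower names moved most for the knockdown with vehicle from 45 and 79 to 61 and 53 (quantile) or 14 and 119 (viral names), with metformin from 29 and 52 to 23 and 106 (median) or 36 and 15 (viral names), averaged from 32 and 74 to 4 and 129 (median), 56 and 47 (quantile) or 15 and 82 (viral names), for metformin in control shRNA cells from 99 and 84 to 36 and 124 (viral names), in Dicer shRNA cells from 13 and 38 to 33 and 25 (quantile), 44 and 19 (series matrix) or 6 and 44 (no scaling), and for the interaction from 77 and 82 to 115 and 20 (viral names).

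These signs turned. Under quantile normalization: miR-1280 (knockdown with vehicle, 0.092), miR-1274a (averaged, 0.27), miR-1260 (metformin in control shRNA cells, 0.12, and interaction, -0.42) and miR-720 (metformin in Dicer shRNA cells, -0.25). Scaled to the viral names: miR-1260 (0.0012) and miR-1280 (0.050) for the knockdown with metformin, miR-1274b (-0.55) and miR-1280 (-1.14) for metformin in control shRNA cells, miR-1274a (-0.19) in Dicer shRNA cells, and miR-1274b (1.08) and miR-1280 (1.23) for the interaction. With the series matrix: miR-720 (-0.24) in Dicer shRNA cells, and miR-1274b (0.24) and miR-1280 (0.040) for the interaction. Without scaling: miR-1274a (-0.090) in Dicer shRNA cells and miR-1280 (0.040) for the interaction. The 75th percentile over all human names was 0.1 on every array, so that setting gave the same -0.090 and 0.040. Scaled to the median: miR-1274a (-0.066) in Dicer shRNA cells. Leaving out arrays moved miR-1280 between -0.51 and 0.029 (knockdown with vehicle) and -0.56 and 0.023 (interaction), miR-1274a between -0.14 and 0.068 (averaged) and -0.0020 and 0.093 (metformin in Dicer shRNA cells), miR-720 between -0.30 and 0.21 (metformin in control shRNA cells) and miR-1260 between -0.16 and 0.33 (interaction). The cause was not tested.

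The deviations of same-numbered arrays had an r of -0.27 to 0.69, above 0.1 in 9 of 18 pairs, so the numbers were not taken to pair the arrays. The replicate block moved the called names to 124, 83, 102, 182, 47 and 159 and changed 2 of 36 calls of the entries, those of miR-1280 (knockdown with metformin) and miR-1308 (metformin in Dicer shRNA cells).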
